A study of Mus musculus with 6 samples.

Results

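The comparison of TGF-β+2APB with DMSO was followed here, and it took 4 of the 6 libraries of the series: the 2 replicates of NMuMG cells given the vehicle DMSO and the 2 replicates given TGF-β and 2APB together. NMuMG is an epithelial cell line from the mouse mammary gland that loses its epithelial form under TGF-β. TGF-β was used at 5 ng/ml and 2APB, a small molecule that modulates store-operated entry of calcium, at 50 uM, after 4 h without serum. The study describes 2APB as blocking the calcium channels ORAI1 and ORAI2 while raising calcium entry through ORAI3. The study's text gives the treatment as 24 h, while its methods put the cells in 2APB for 24 h before TGF-β, so the length of the joint exposure was not settled. The study also sequenced 2 libraries of cells given TGF-β alone, which entered the model but not this comparison. No library had 2APB without TGF-β, so the effect of 2APB by itself is not measured, and each difference from DMSO given here is that of both agents together. The genes of the comparison were described by function in 48 lists. Genes whose TGF-β+2APB replicates differed widely, or of which a replicate lay near DMSO, were set apart.

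TGF-β binds a pair of receptor kinases that phosphorylate SMAD2 and SMAD3, which enter the nucleus with SMAD4 and act on genes of the extracellular matrix, of the cytoskeleton and of the pathway's own feedback. In mammary epithelial cells this is a textbook trigger of the epithelial to mesenchymal transition (EMT), in which E-cadherin junctions are lost and transcription factors of the SNAI, ZEB and TWIST families rise. Store-operated calcium entry is the inflow of calcium through ORAI channels after the sensor STIM1 detects that the endoplasmic reticulum has been emptied.

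The libraries held 71840570 to 79460664 counts, and the top 10 genes made up 6.49% to 7.4% of them. A normalized count is a gene's count scaled to the mean library, and 13353 of 18512 entries, those whose normalized counts averaged 20 or more, were tested. One library stood apart. TGF-β+2APB replicate 2 had 32780 normalized counts summed over 9 leukocyte markers, against 517 in TGF-β+2APB replicate 1 and 4529 and 1822 in DMSO. The replicates of TGF-β+2APB differed by a standard deviation of 0.58 on the log2 scale over the genes tested, and those of DMSO by 0.22. Markers of the labelled cell type were uneven. The luminal keratin genes Krt8 (252650 and 234420 normalized counts in DMSO) and Krt18 (173690 and 161000) and Cdh1 were abundant, while Epcam had 128 and 163 and Cldn7 5.90 and 2.07 normalized counts. Alb, the gene of serum albumin, had 31570 and 28821 in DMSO, within a sum of 94030 and 85140 over 10 hepatocyte markers.

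Of the 13353 genes tested, 7044 (52.8%) differed between TGF-β+2APB and DMSO at an FDR of 0.05 or less in edgeR's quasi-likelihood test, and are called here. The higher genes numbered 3414 (25.6% of those tested) and the lower ones 3630 (27.2%). These shares are the background for every count that follows. Each called gene named below had both treated libraries on the same side of both DMSO libraries. The calls come from these same libraries, so such separation, here and below, is a description and no support for them. Its share over all genes tested is not given. The median log2 fold change was 0.74 in the called higher genes and -0.95 in the called lower ones, while the median over all genes tested was -0.0033. A change of at least 4-fold was fitted for 650 higher and 812 lower genes, and one of at least 16-fold for 270 and 314. The number called was 5078 without TGF-β+2APB replicate 1, 5291 without replicate 2, 4355 without DMSO replicate 1 and 4435 without DMSO replicate 2. Each of these fits leaves 1 library in a group, which is taken to vary like those of the other groups. Without TGF-β+2APB replicate 1, 18.4% of the genes tested were higher and 19.5% lower, and without replicate 2 these shares were 18.9% and 21.2%. A gene near 0 in one group could pass the count minimum only through other libraries, where it is high: 336 of the higher genes averaged under 20 normalized counts in DMSO, and 376 of the lower ones did so in TGF-β+2APB. In bulk RNA, fewer cells of a type and less RNA per cell cannot be told apart, and this holds for every gene below. The study's methods call the replicates biological, while the labels do not say whether they were separate cultures. The tests measure the spread between these libraries, which may be in part technical.

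A gene was set apart where its normalized counts plus 10 differed 4-fold or more between the TGF-β+2APB replicates, or, if called, where the replicate nearer to the DMSO mean lay less than 1.5-fold from it. The first condition held for 243 genes (1.82% of those tested), and every one of them was higher in replicate 2. Among the called genes 2670 (20% of those tested) were set apart, 15 by the difference between replicates and 2655 by nearness to DMSO alone. For 2150 of these 2655 genes both replicates lay within 1.5-fold of DMSO, and the median size of change over the 2655 was 0.42 on the log2 scale. In the other 505 only a single replicate lay that near, replicate 1 for 144 genes and replicate 2 for 361. A gene set apart by nearness thus mostly had a small change in both replicates, not a change resting on a single replicate. The remaining 4374 called genes, 1942 higher and 2432 lower, moved by a median of 1.38 on the log2 scale. Of these 4374, 3914 were called in the same direction both without TGF-β+2APB replicate 1 and without replicate 2. Around the 4-fold limit, the replicates of Gdf15 differed 4.05-fold, just far enough to be set apart, and those of Hvcn1 3.98-fold, just too little. The list counts below include genes set apart.

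**Figure D1:**
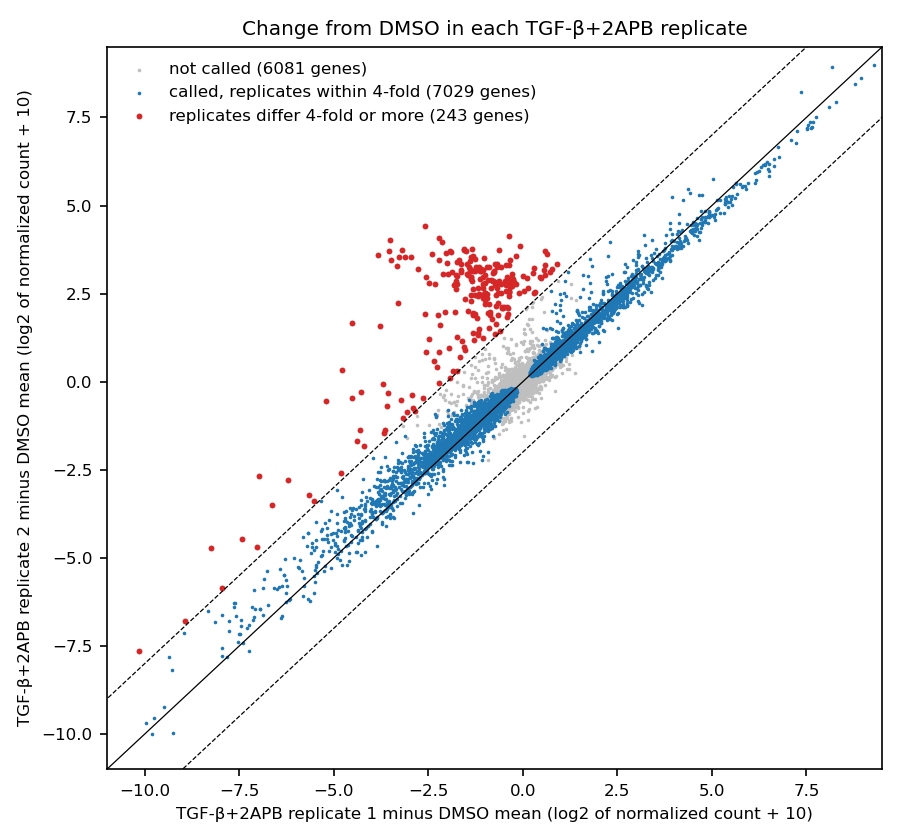
Difference of each TGF-β+2APB replicate from the DMSO mean, as log2 of normalized count plus 10, for 13353 genes (1 point each; solid line, equal change; dashed lines, 4-fold difference between replicates). Most called genes lie near the solid line, while the 243 genes marked in red all lie above the upper dashed line, higher in replicate 2.

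The largest rises among called genes that were not set apart were in genes without a single count in DMSO. For such genes a lower bound of the fold is given, taken at a floor of 3 reads in each library after halving the counts, since every deposited count was even. For genes with 1 to 3 halved counts in the lower group the ratio of the higher to the lower group is given with its exact Poisson interval. Bounds and intervals cover counting error only. Smr3a, a salivary gland protein gene, had 0 and 0 normalized counts in DMSO and 1623 and 2952 in TGF-β+2APB, at least 378-fold higher (FDR 0.033). The neurotensin receptor gene Ntsr1 went from 0 and 0 to 1996 and 1492, at least 288-fold higher (FDR 0.000151). Both were chosen as large rises, and at 0 in DMSO they passed the count minimum only through libraries where they are high. Their calls are therefore no support for these values. The other 8 of the 10 largest rises had bounds of 97.6-fold to 171-fold: Spt1 (a salivary protein), Kif26b (a kinesin), Elmod1, Lce1f (a cornified envelope protein), Tmem119, Crispld2, Has2 (a hyaluronan synthase) and Prss46 (a serine protease). All 8 were at 0 in both DMSO libraries, so the same holds for their calls. The calls of Smr3a and Spt1 did not outlast the loss of single libraries. Smr3a had an FDR of 0.109 without DMSO replicate 1, 0.108 without DMSO replicate 2 and 0.0558 without TGF-β+2APB replicate 2. For Spt1 the FDR ran from 0.0654 without TGF-β+2APB replicate 2 and 0.0743 without replicate 1 to 0.134 and 0.135 without DMSO replicates 2 and 1.

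The largest falls were in genes of plasma proteins and of drug and lipid metabolism. Fga, the α chain of fibrinogen, had 1732 and 1653 normalized counts in DMSO and none in TGF-β+2APB, at least 285-fold lower (FDR 0.00019). Apoa1, the main protein of high density lipoprotein, went from 10820 and 9101 to 0 and 1.97, a DMSO to TGF-β+2APB ratio of 10080 (95% counting interval 1809 to 398100). The fatty acid hydroxylase gene Cyp4a12a went from 7309.7 and 7229 to 0 and 1.97, a ratio of 7356 (95% counting interval 1320 to 290600). These 3 genes were well expressed in each DMSO library, through which they passed the count minimum, and had at most a single doubled read in TGF-β+2APB. Afm, the vitamin E-binding plasma protein afamin, fell from 10547 and 10353 to 1.98 and 3.95, a ratio of 3525 (95% counting interval 1206 to 17090). Gm3776, Cyp2c70, Aldh1a7, Serpind1 (heparin cofactor II) and Cyp4a12b were at 0 in both TGF-β+2APB libraries and at least 61.5-fold to 128-fold lower. All falls named here were chosen for their size and passed the count minimum mainly through DMSO, where they are high. Their calls are therefore no support for these values.

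The 250 bases before the RefSeq start are shown for the 2 genes that rose most and the 2 that fell most (GRCm38.p6, 5′ to 3′). Capitals mark matches on either strand to CAGAC (the SMAD-binding element), TGANTCA (AP-1), CACCTG (the E-box bound by SNAI factors) and the HNF1 palindrome. The lines give the gene with the position of the bases, all on the plus strand.
Smr3a chr5:88002275-88002524: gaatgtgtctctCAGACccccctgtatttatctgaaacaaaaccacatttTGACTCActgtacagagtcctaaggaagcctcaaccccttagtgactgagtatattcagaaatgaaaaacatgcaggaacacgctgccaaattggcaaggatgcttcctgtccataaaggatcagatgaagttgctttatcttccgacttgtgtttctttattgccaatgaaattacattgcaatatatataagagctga
Ntsr1 chr2:180499726-180499975: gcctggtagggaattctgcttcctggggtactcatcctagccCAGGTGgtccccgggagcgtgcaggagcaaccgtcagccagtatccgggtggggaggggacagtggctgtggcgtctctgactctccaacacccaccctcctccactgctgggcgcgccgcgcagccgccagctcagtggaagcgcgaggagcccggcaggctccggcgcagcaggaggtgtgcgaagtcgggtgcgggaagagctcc
Fga chr3:83025903-83026152: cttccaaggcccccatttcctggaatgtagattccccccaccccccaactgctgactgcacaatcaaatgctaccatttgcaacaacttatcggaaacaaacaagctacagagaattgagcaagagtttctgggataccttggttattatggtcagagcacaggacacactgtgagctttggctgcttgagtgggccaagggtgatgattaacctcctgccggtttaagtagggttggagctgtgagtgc
Apoa1 chr9:46228380-46228629: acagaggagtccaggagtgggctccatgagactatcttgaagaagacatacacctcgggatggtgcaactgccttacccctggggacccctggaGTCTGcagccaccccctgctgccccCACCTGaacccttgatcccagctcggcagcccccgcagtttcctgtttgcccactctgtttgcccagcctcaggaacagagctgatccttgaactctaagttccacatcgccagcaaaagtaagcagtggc
In the shown bases Smr3a held 1 match to CAGAC and 1 to TGANTCA, Ntsr1 held 1 to CACCTG, Apoa1 held 1 to CAGAC and 1 to CACCTG, and Fga held none of the 4. Of 32851 RefSeq promoter windows, the same 250 bases held CAGAC in 42.2%, TGANTCA in 6.75%, CACCTG in 17.2% and the HNF1 palindrome in 0.00913%. The matches are a description of letters in these windows.

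Genes of the TGF-β pathway itself were mostly higher. Of 19 ligand, receptor and SMAD genes tested, 10 rose and 3 fell, with a median log2 fold change of 0.38. The ligand gene Tgfb1 had 2158 and 2074 normalized counts in DMSO and 5557 and 5885 in TGF-β+2APB, a log2 fold change of 1.43 ± 0.11 (standard error, as in all such values below; FDR 0.000204). Inhba, the activin A subunit gene, went from 576 and 601 to 5109.9 and 4037 (2.96 ± 0.45, FDR 0.00291). Ltbp2, a latent TGF-β-binding protein gene, went from 5.90 and 0 to 214 and 239, a ratio of 74.8 (95% counting interval 25.6 to 363), and without DMSO replicate 1, which held all of its DMSO counts, its fitted log2 fold change was 10.82. The 3 genes that fell were Tgfb3 (195 and 244 to 99.0 and 98.6, log2 fold change -1.15 ± 0.23), the co-receptor Tgfbr3 and the activin receptor Acvr2a (-0.81 ± 0.27). Tgfbr3 was uneven between its treated replicates, 191 and 165 normalized counts in DMSO against 1.98 and 31.6 (-3.40 ± 0.98, FDR 0.0308). Its value was -6.38 without TGF-β+2APB replicate 2, and its call was lost without DMSO replicate 1 (FDR 0.108) or 2 (FDR 0.0937). That of Tgfb3 was lost without DMSO replicate 2 (FDR 0.0822). With single libraries left out, the number lower was 0 without DMSO replicate 2 and 1 without DMSO replicate 1. The genes of the kinase receptors Tgfbr1 and Tgfbr2 and of Acvr1b, Smad2, Smad3 and Smad4 were not called, with log2 fold changes between -0.12 ± 0.089 for Tgfbr2 and 0.27 ± 0.22 for Tgfbr1.

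Feedback genes moved in both directions, 7 of 12 higher and 3 lower (median 0.65). Pmepa1, whose product holds back SMAD signalling, went from 5277 and 4973 normalized counts in DMSO to 68163 and 59979 in TGF-β+2APB (3.64 ± 0.10, FDR 1.45e-05). The SMAD corepressor gene Skil went from 9875 and 10134 to 33708 and 27590 (1.62 ± 0.22). The inhibitory SMAD gene Smad7 went from 4679.9 and 4655 to 12774 and 11753 (1.39 ± 0.078). In each of the 3 genes both treated libraries were above both DMSO libraries. Nedd4l, a ubiquitin ligase that acts on SMAD2 and SMAD3, fell from 6156 and 5749.7 to 1039 and 1194 (-2.41 ± 0.14), with the decoy receptor gene Bambi (-1.24 ± 0.19) and Smad6 (-0.35 ± 0.081, set apart) lower too. The Id genes, classical targets of BMP signals, fell together: Id1 from 18179 and 16100 to 1370 and 1687 (-3.49 ± 0.18, FDR 6.6e-05). Id2 went from 60858 and 58421 to 7402 and 12601 (-2.58 ± 0.25) with Id3 lower too (-1.74 ± 0.17). Bmp4 was the other of the 4 lower genes among 13 of the Id and BMP list (-1.20 ± 0.12). The BMP antagonist gene Grem1 rose from 31.4 and 22.7 to 234 and 219 (3.05 ± 0.32). The procollagen protease gene Bmp1 went from 6036 and 6111 to 35407 and 33269 (2.50 ± 0.074). The number higher in that list was 7, and 4 without either TGF-β+2APB library.

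Transcription factors of EMT were higher in 12 of 15 members tested, with a median log2 fold change of 1.28. Snai1, the gene of the E-cadherin repressor SNAIL and the subject of the study, had 5.90 and 12.4 normalized counts in DMSO and 43.6 and 61.2 in TGF-β+2APB (2.51 ± 0.52, FDR 0.00927). At these low counts its call was lost without DMSO replicate 1 (FDR 0.0618). The homeobox gene Prrx2 rose most of the list, from 7.86 and 10.3 to 568 and 525 (5.89 ± 0.22, FDR 3.17e-05). Sox9 was the 1 member that fell (9627 and 10002 to 5536 and 5911, -0.78 ± 0.086), and Snai3 (-0.77 ± 0.38) and Prrx1 (-0.35 ± 0.50) were not called. None of the 13 called members was set apart.

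Mesenchymal markers were higher in 8 of 11 and lower in 0 (median 1.23). Vim, the intermediate filament gene, went from 89244 and 83748 normalized counts in DMSO to 135090 and 145920 in TGF-β+2APB (0.70 ± 0.087, FDR 0.00134). The receptor gene Pdgfrb went from 9.83 and 12.4 to 663 and 554 (5.76 ± 0.23). Nt5e, the gene of the ecto-nucleotidase CD73, went from 655 and 645 to 11956 and 9441 (4.04 ± 0.18). Fn1, fibronectin, was already abundant and was set apart, with 333890 and 333780 against 438020 and 451590 (0.41 ± 0.071). Its FDR was 0.0542 without TGF-β+2APB replicate 1 and 0.0556 without replicate 2. Axl (0.27 ± 0.11), Cdh11 (0.073 ± 0.31) and S100a4 (1.23 ± 0.48) were not called. Summed over the fibroblast markers, 151 and 176 normalized counts in DMSO stood against 3110 and 2474 in TGF-β+2APB, mostly Col1a1, Pdgfrb and Pdgfra. The fibroblast genes Dcn, Col1a2, Col3a1 and Thy1 stayed at or below 9.83 and 12.4 in DMSO and 5.94 and 11.8 in TGF-β+2APB, the values of Col3a1.

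Epithelial transcription factors and splicing regulators fell in 7 of 12 members and rose in 2 (median -1.04). Ehf, an ETS factor of epithelia, went from 6429 and 6388 normalized counts in DMSO to 346 and 404 in TGF-β+2APB (-4.09 ± 0.12, FDR 1.66e-05). The RNA-binding protein gene Rbm47 went from 11217 and 10964 to 1103 and 2048 (-2.82 ± 0.30). The 2 that rose were Gata3, a luminal factor (33.4 and 28.9 to 168 and 148, 2.34 ± 0.24), and Klf4 (1148 and 1087 to 1712 and 1679, 0.60 ± 0.15), which was set apart. The FDR of Klf4 was 0.0845 and 0.114 without DMSO replicates 1 and 2, and 0.0707 and 0.0502 without TGF-β+2APB replicates 1 and 2. Grhl2, first of the list, was too low to be tested.

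Tight and adherens junction genes fell in 14 of 22 and rose in 4 (median -0.64). Cdh1, E-cadherin, went from 91180 and 90601 normalized counts in DMSO to 35058 and 41060 in TGF-β+2APB (-1.26 ± 0.13, FDR 0.000682). The tight junction genes Marveld2 (2508 and 2202 to 378 and 469.6, -2.47 ± 0.14) and Tjp3 (1189 and 1080.5 to 209.9 and 288, -2.19 ± 0.22) fell most. The 4 genes that rose went the other way: the claudin gene Cldn4 from 1.97 and 6.20 to 2087 and 1529 (8.76 ± 0.36, FDR 3.97e-05), the nectin gene Pvrl1 by 3.21 ± 0.13, Cldn12 by 0.45 ± 0.09 (set apart), and the nectin gene Pvrl4 from 5.90 and 0 to 75.2 and 69.1, a ratio of 23.9 (95% counting interval 8.16 to 116) and a fitted log2 fold change of 9.17 without DMSO replicate 1. Desmosome and keratin genes were divided as well, 9 of 15 higher and 5 lower. The most abundant members, the keratin partners of luminal cells, rose: Krt8 from 252650 and 234420 to 729310 and 700430 (1.55 ± 0.092, FDR 0.000103) and Krt18 from 173690 and 161000 to 608460 and 562990 (1.81 ± 0.10, FDR 8.42e-05). Krt7, another luminal keratin gene, went from 3414 and 3208 to 7781 and 6059 (1.06 ± 0.14). Krt19, also luminal, fell from 45112 and 42139 to 1687 and 3441 (-4.09 ± 0.39, FDR 0.000492). Ppl, periplakin, went from 26898 and 27526 to 5296 and 7194 (-2.12 ± 0.16), with Dsg2 (-1.55 ± 0.073), Dsp (69860 and 68150 to 45138 and 42445, -0.66 ± 0.066) and Perp (-0.53 ± 0.086, set apart) lower too. The plakophilin gene Pkp1 rose from 7.86 and 10.3 to 3508 and 2774 (8.42 ± 0.22, FDR 1.45e-05). Krt80 went from 179 and 174 to 2706 and 2127 (3.78 ± 0.16). The other rises were Pkp2 (1.11 ± 0.10), Pkp3 (2.64 ± 0.42), Krt20 (0.68 ± 0.082) and Jup (0.47 ± 0.12, set apart). The call of Jup was lost without DMSO replicate 1 (FDR 0.0814), DMSO replicate 2 (FDR 0.117) or TGF-β+2APB replicate 1 (FDR 0.127), and the value of Pkp3 was 3.28 without DMSO replicate 1. In all of these the treated and DMSO libraries did not overlap.

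**Figure D2:**
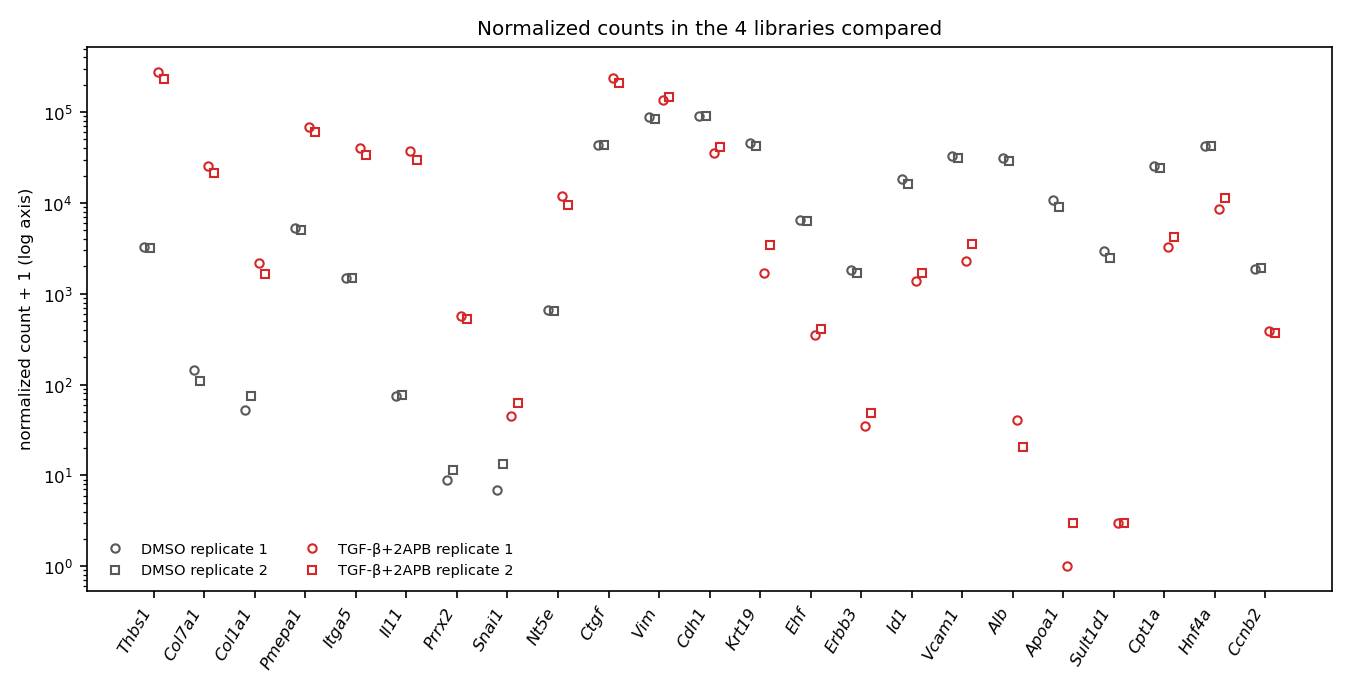
Normalized count plus 1 (log axis) of 23 named genes in the 2 DMSO libraries (grey) and the 2 TGF-β+2APB libraries (red), circles for replicate 1 and squares for replicate 2. For each gene shown, chosen among the called genes, both treated libraries lie on the same side of both DMSO libraries.

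Genes of the contractile cytoskeleton and of the matrix were mostly higher. Actin contractile genes rose in 17 of 21 and fell in 2 (median 1.33): Lima1 (13202 and 12274 to 3884 and 4725, -1.57 ± 0.14) and Actn4 (-0.23 ± 0.076, set apart). Tagln, transgelin, rose from 118 and 118 normalized counts in DMSO to 1522 and 1034 in TGF-β+2APB (3.44 ± 0.21, FDR 0.000115). Acta2, smooth muscle actin, stayed low, 19.7 and 10.3 against 91.1 and 86.8 (2.56 ± 0.53, FDR 0.00969), and its call was lost without DMSO replicate 2 (FDR 0.0658). The number lower was 1 without any single library of the 4 compared.

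Collagen genes rose in 13 of 17 (median 1.71). Col7a1, the collagen of anchoring fibrils, went from 143 and 109.5 normalized counts in DMSO to 25492 and 21170 in TGF-β+2APB (7.52 ± 0.26, FDR 2.52e-05). Col1a1 went from 51.1 and 74.4 to 2154 and 1646 (4.92 ± 0.23). Col6a3 went from 0 and 2.07 to 99.0 and 96.7, a ratio of 97.1 (95% counting interval 17.4 to 3834). Col4a5, a basement membrane collagen, was the 1 that fell (80.6 and 37.2 to 7.92 and 5.92, -3.07 ± 0.65, FDR 0.0104), a number that was 0 without DMSO replicate 1. Of 23 matrix glycoprotein and laminin genes, 9 rose and 8 fell (median 0.086). Thbs1, thrombospondin 1, rose from 3294 and 3189.9 to 277980 and 231070 (6.29 ± 0.12, FDR 1.03e-05). The fibrillin gene Fbn1 went from 0 and 0 to 63.4 and 47.4, at least 9.15-fold higher. The basement membrane gene Nid2 fell from 2455 and 2564 to 103 and 156 (-4.28 ± 0.21). Efemp1 went from 297 and 287 to 11.9 and 29.6 (-3.81 ± 0.51). Collagen-modifying enzymes rose in 8 of 16, among them Pcolce2, a procollagen protease enhancer (11.8 and 10.3 to 3225 and 2886, 8.09 ± 0.16, FDR 1.03e-05), and the lysyl hydroxylase gene Plod2 (660.4 and 750.0 to 10616 and 7681, 3.70 ± 0.26). Pcolce (2343 and 2223 to 855 and 894, -1.38 ± 0.12) and the transglutaminase gene Tgm2 (77569 and 74918 to 35547 and 35526, -1.10 ± 0.14) fell. Lox, lysyl oxidase, was low (5.90 and 10.3 against 27.7 and 37.5, 1.99 ± 0.47, FDR 0.0157) and not called without DMSO replicate 1 (FDR 0.103) or TGF-β+2APB replicate 2 (FDR 0.0575).

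Matrix proteases and their inhibitors rose in 16 of 24 and fell in 7 (median 1.52), with Mmp2 too low to be tested. The cathepsin gene Ctsw went from 37.3 and 26.9 normalized counts in DMSO to 8184 and 6904 in TGF-β+2APB (7.87 ± 0.19, FDR 1.23e-05). The metalloproteases Adamts9 (2101 and 2147 to 135 and 256, -3.44 ± 0.31) and Adamts1 (476 and 450.4 to 71.3 and 82.9, -2.58 ± 0.17) fell most, and the number lower was 4 without either DMSO library. Integrins, the cell's matrix receptors, rose in 8 of 16 and fell in 3 (median 0.83). The fibronectin receptor gene Itga5 rose from 1486 and 1496 to 39820 and 33888 (4.63 ± 0.11, FDR 1.23e-05). Itgb3 went from 2169.9 and 2062 to 12501 and 9683 (2.39 ± 0.14), while the collagen receptor gene Itga1 fell from 5584 and 5640.2 to 131 and 174 (-5.20 ± 0.21, FDR 3.69e-05), with Itga9 (100.2 and 138 to 29.7 and 41.4, -1.74 ± 0.32) and Itgb4 (-1.08 ± 0.10). Targets of the coactivator YAP and CCN genes rose in 12 of 16 (median 1.21). Ctgf went from 43717 and 43254 to 234560 and 207730 (2.35 ± 0.10, FDR 4.11e-05). Wisp1 went from 2007 and 1932 to 36935 and 28658 (4.06 ± 0.16). Birc5 (1594 and 1752 to 618 and 655, -1.39 ± 0.10) and the YAP partner gene Tead4 (2205 and 2130.1 to 859 and 823, -1.37 ± 0.11) fell.

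**Figure D3:**
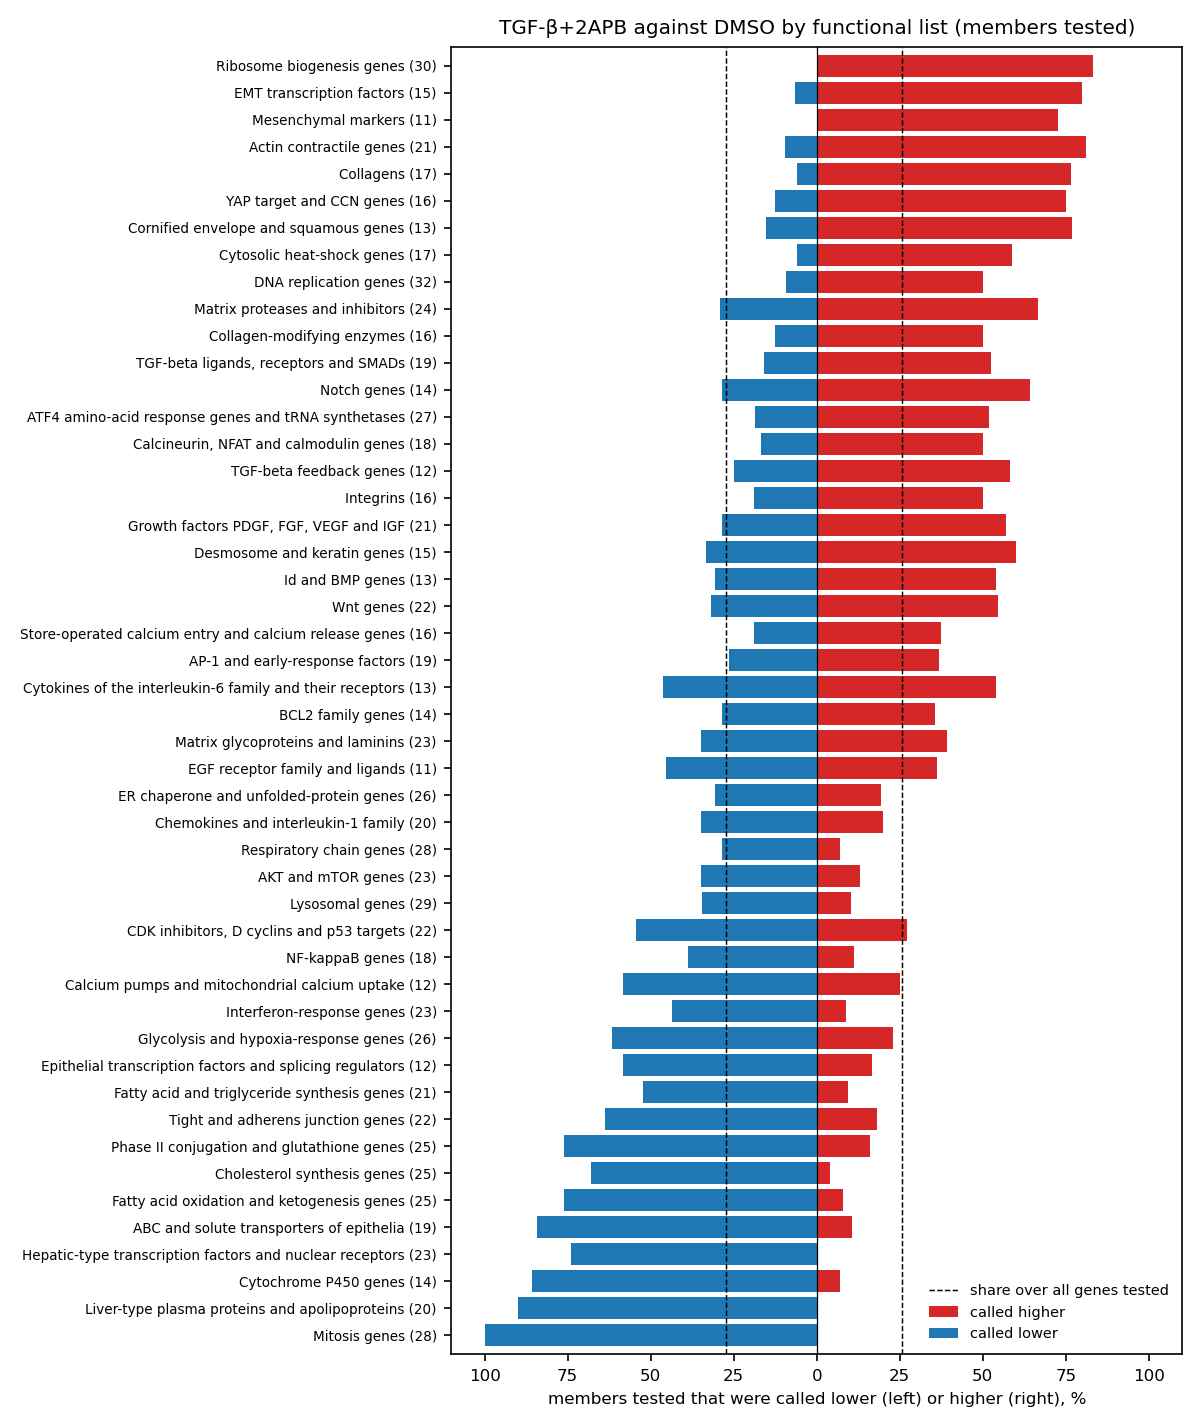
Share of the tested members of each of 48 functional lists that were called higher (red, right) or lower (blue, left) in TGF-β+2APB than in DMSO, in percent, with the number tested in brackets and dashed lines at 25.6% and 27.2%, the shares over all genes tested. The lists are ordered by the share higher minus the share lower, which puts ribosome biogenesis genes at the top and mitosis genes, all 28 lower, at the bottom.

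Genes of store-operated calcium entry, the process that 2APB acts on, were divided, with Stim1 and Orai3 lower and Stim2 and Orai1 not called. Stim1, the calcium sensor of the endoplasmic reticulum, had 4556 and 4458 normalized counts in DMSO and 3359.7 and 3646 in TGF-β+2APB (-0.36 ± 0.10, FDR 0.0234). It was set apart, and its call was lost without any single library of either group (FDR 0.0841 to 0.159). The channel gene Orai3 fell from 2359 and 2233 to 1409.6 and 1393 (-0.71 ± 0.12, FDR 0.00386), while Stim2 (3229 and 3025 against 3279 and 3356, 0.085 ± 0.067) and Orai1 (1889 and 1773 against 1589.8 and 1857, -0.087 ± 0.14) were not called. Of 16 genes of calcium entry and release, 6 rose and 3 fell (median 0.089). The larger changes were in other channels: the muscle-type release channel gene Ryr1 went from 3.93 and 12.4 to 154 and 159.8 (4.25 ± 0.54). Trpv4 went from 74.7 and 97.1 to 869 and 842 (3.32 ± 0.19). Trpm4 went from 1413 and 1376 to 588 and 584 (-1.25 ± 0.15).

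Calcium pumps and mitochondrial uptake genes fell in 7 of 12 and rose in 3, but 5 of the called genes were set apart, and the number lower was 3 without either DMSO library or TGF-β+2APB replicate 1 and 4 without TGF-β+2APB replicate 2. The plasma membrane pump gene Atp2b1 fell from 17648 and 17834 normalized counts in DMSO to 4660.5 and 4856 in TGF-β+2APB (-1.90 ± 0.20, FDR 0.00075). The mitochondrial exchanger gene Slc8b1 went from 1944 and 1859 to 909 and 1036 (-0.97 ± 0.10). Among the genes that rose were the pumps Atp2b4 (16099 and 16400 to 42465 and 34135, 1.24 ± 0.11) and Atp2c1 (9509 and 9894 to 15518 and 14590, 0.63 ± 0.081). Atp2a2, the SERCA2 pump, was at 37164 and 37302 against 30453 and 32337 (-0.25 ± 0.082, FDR 0.0484), was set apart, and lost its call without any single library of either group (FDR 0.177 to 0.285). Calcineurin, NFAT and calmodulin genes rose in 9 of 18 and fell in 3, and the number higher was 5 without DMSO replicate 1. Nfatc1 went from 4497 and 4744 to 7450 and 7115 (0.66 ± 0.08). The calcineurin regulator Rcan2 went from 27.5 and 18.6 to 115 and 120.3 (2.34 ± 0.32). The calcineurin subunit gene Ppp3ca went from 1464 and 1209 to 4304 and 4007 (1.64 ± 0.36), a call lost without DMSO replicate 1 (FDR 0.0523) or 2 (FDR 0.077). The 3 that fell were the kinase Camk2d (9849 and 10146 to 2934 and 3865, -1.56 ± 0.14), the calmodulin gene Calm3 (31489 and 30280 to 15520 and 15991, -0.97 ± 0.11) and Rcan3 (-0.61 ± 0.13, set apart).

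The AKT and mTOR genes were not called in 12 of 23. Akt1 had 24606 and 23237 normalized counts in DMSO and 23542 and 24386 in TGF-β+2APB (0.0026 ± 0.087, FDR 0.982), a value of -0.061 with library-size scaling. Rictor, of the complex mTORC2, was at 6276 and 6425 against 8175 and 7734 (0.32 ± 0.20, FDR 0.228). The 3 that rose were Pik3cb (1389.6 and 1475 to 4965 and 4534, 1.73 ± 0.081), Rptor (0.56 ± 0.10, set apart) and Mtor (4109.9 and 4119.6 to 5060.4 and 5238, 0.32 ± 0.083, set apart), the last with an FDR of 0.101 to 0.128 without single libraries of either group. Deptor, an mTOR inhibitor, fell from 3398 and 3182 to 218 and 296 (-3.68 ± 0.17, FDR 5.11e-05). The forkhead factor Foxo4 went from 6938 and 6783 to 3247 and 2979 (-1.14 ± 0.094), among 8 lower genes. The number higher was 6 without either library of TGF-β alone.

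NF-κB genes fell in 7 of 18 and rose in 2 (median -0.44). Rela, the p65 subunit, was not called (12679 and 12450 against 11556 and 11467 normalized counts, -0.13 ± 0.092). The adhesion molecule gene Vcam1 fell from 33174 and 31468 to 2314 and 3559 (-3.46 ± 0.23, FDR 0.000146). Bcl3 went from 4715 and 4599 to 1291 and 1914 (-1.54 ± 0.21), while Traf1 (122 and 62.0 to 327 and 333, 1.84 ± 0.37) and the inhibitor Tnfaip3 (10814 and 10045 to 18345 and 17275, 0.77 ± 0.075) rose. For the list, higher calls numbered 4 without either library of TGF-β alone. Among AP-1 and early-response factors 7 of 19 rose and 5 fell, beside 25.6% and 27.2% over all genes tested. Fos went from 2673 and 1667 to 67.3 and 105 (-4.66 ± 0.52, FDR 0.00088). Egr1 went from 13381 and 9376 to 915 and 889.8 (-3.66 ± 0.34), with Atf3 (-1.53 ± 0.31), Egr3 (-1.11 ± 0.28) and Ier2 (-0.81 ± 0.14) lower too. Their relative Fosb rose from 136 and 90.9 to 1198 and 1109 (3.35 ± 0.22). Myc went from 5690.1 and 5640.2 to 14688 and 14505 (1.37 ± 0.065).

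Growth factor genes of the PDGF, FGF, VEGF and IGF families rose in 12 of 21 and fell in 6, with none set apart among those called. Pdgfa went from 550.3 and 630.1 normalized counts in DMSO to 7098 and 5483 in TGF-β+2APB (3.41 ± 0.21, FDR 0.000113). The FGF receptors crossed: Fgfr1, the form typical of mesenchymal cells, rose from 199 and 169 to 10711 and 8865 (5.73 ± 0.15, FDR 1.43e-05), while Fgfr2 (20738 and 21156 to 588 and 1375, -4.42 ± 0.42) and Fgfr3 (13955 and 14576 to 915 and 1288, -3.69 ± 0.18) fell. The ligand gene Fgf1 fell from 10679 and 10351 to 263 and 243 (-5.38 ± 0.11). Igfbp5, an IGF-binding protein, went from 1240.2 and 1211 to 0 and 3.95, a ratio of 620 (95% counting interval 172 to 5120). In the EGF receptor family Egfr rose from 4918 and 5304 to 14078 and 14261 (1.47 ± 0.082, FDR 8.51e-05) and Erbb3 fell from 1804 and 1704 to 33.7 and 47.4 (-5.43 ± 0.28, FDR 6.8e-05), among 4 higher and 5 lower of 11. The ligands Areg (621 and 709 to 1562 and 1393, 1.15 ± 0.11), Hbegf (0.71 ± 0.10) and Nrg1 (0.86 ± 0.089) rose, and Btc (1696 and 1762 to 499 and 539, -1.74 ± 0.091) and Tgfa (-0.73 ± 0.13) fell, as did Erbb2 (-0.71 ± 0.11) and the feedback inhibitor Errfi1 (-0.81 ± 0.088).

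Wnt genes rose in 12 of 22 and fell in 7 (median 0.86). The R-spondin receptor gene Lgr6 went from 25.6 and 33.1 normalized counts in DMSO to 8008 and 6558 in TGF-β+2APB (7.95 ± 0.18, FDR 1.14e-05). The ligand gene Wnt9a went from 47.2 and 47.5 to 11281 and 8383 (7.69 ± 0.21). Wnt4 fell from 3762 and 3708 to 301 and 515 (-3.19 ± 0.27). Lgr4 went from 7196 and 7593 to 1515 and 1458 (-2.31 ± 0.071). Of 14 Notch genes 9 rose and 4 fell. The receptor Notch1 fell from 3162 and 3029 to 839 and 1028 (-1.73 ± 0.14). Its ligand Jag2 fell from 1619.6 and 1527 to 689 and 884, as did Rfng (-0.73 ± 0.11) and Hes6 (-0.46 ± 0.076, set apart). Notch4 rose from 45.2 and 57.8 to 1004 and 876 (4.19 ± 0.17). The ligand Dll4 went from 11.8 and 4.13 to 392 and 328 (5.47 ± 0.45).

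Cytokines of the interleukin-6 family rose, while the receptor genes Osmr, Lifr, Il6st and Il11ra1 fell. All 13 members tested were called, 7 higher and 6 lower, and none was set apart. Il11 went from 74.7 and 76.4 normalized counts in DMSO to 37579 and 29745 in TGF-β+2APB (8.80 ± 0.18, FDR 1.03e-05). Il6 went from 0 and 0 to 51.5 and 51.3, at least 8.50-fold higher. Osm, oncostatin M, went from 1.97 and 0 to 83.2 and 122, a ratio of 102 (95% counting interval 18.3 to 4026). Osmr, the oncostatin M receptor, went from 218 and 242 to 43.6 and 35.5 (-2.54 ± 0.26). Lifr, the receptor of leukemia inhibitory factor, went from 2917 and 3231 to 590.0 and 635 (-2.33 ± 0.10).

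Among chemokines and the interleukin-1 family 7 of 20 fell and 4 rose, and in 5 members, of which Cxcl5 alone was called, the TGF-β+2APB replicates differed 4-fold or more. The neutrophil chemokine Cxcl1 fell from 5859 and 4971 normalized counts in DMSO to 273 and 606 in TGF-β+2APB (-3.62 ± 0.37, FDR 0.000675). Ccl20 went from 7646 and 7097 to 343 and 249 (-4.64 ± 0.17). Cxcl15 went from 51.1 and 64.0 to 3.96 and 0, a ratio of 29.1 (95% counting interval 8.06 to 240.5) and a fitted log2 fold change of -8.84 without TGF-β+2APB replicate 1. The 4 that rose were Csf2 (37.3 and 31.0 to 267 and 183, 2.72 ± 0.28), Il34 (57.0 and 62.0 to 378 and 322, 2.55 ± 0.19), Csf1 (1.74 ± 0.10), all 3 growth factors of myeloid cells, and Ccl7 (0.78 ± 0.17, set apart). The number higher was 7 without replicate 1 of TGF-β alone. Interferon-response genes fell in 10 of 23 and rose in 2, B2m (0.61 ± 0.089, set apart) and Oasl2 (78.6 and 55.8 to 279 and 201, 1.83 ± 0.29). Mx2 fell from 86.5 and 68.2 to 5.94 and 3.95 (-3.93 ± 0.71). Ifit1 went from 86.5 and 109.5 to 7.92 and 13.8 (-3.16 ± 0.84). The call of Ifit1 was lost without DMSO replicate 1 (FDR 0.0831) or 2 (FDR 0.11). The number lower was 5 without DMSO replicate 1 and 15 without TGF-β+2APB replicate 2, the library with the high leukocyte sum. The source of that library's leukocyte marker counts, and their part in the levels of these lists, was not tested.

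Genes that hepatocytes express at high levels were nearly emptied. Of 20 liver-type plasma protein and apolipoprotein genes tested, 18 fell and none rose, with a median log2 fold change of -7.33 (-6.33 with the 3 members at 0 in both TGF-β+2APB libraries placed at their bounds). Alb went from 31570 and 28821 normalized counts in DMSO to 39.6 and 19.7 in TGF-β+2APB (-9.99 ± 0.45, FDR 5.07e-05), and Fga and Apoa1 were given above. Apoe (-0.009 ± 0.52) and Apob (0.62 ± 0.23) were not called, and the number higher was 1 without TGF-β+2APB replicate 1 or either library of TGF-β alone. Of 23 hepatic-type transcription factors 17 fell and none rose (median -2.06). Hnf4a, the central factor of hepatocytes and gut epithelium, fell from 42565 and 41967 to 8487 and 11430 (-2.09 ± 0.20, FDR 0.000513). The xenobiotic receptor gene Nr1i2 went from 183 and 209 to 3.96 and 3.95 (-5.59 ± 0.34). Nr5a2 went from 670.2 and 587 to 13.9 and 25.6 (-4.98 ± 0.32). Hepatocyte markers summed to 188 and 211 in TGF-β+2APB, and of that list Cyp3a11 and Ahsg had at most 9.83 in any library compared. Whether RNA of other cells entered these levels was not tested.

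Genes of detoxification fell with them. Cytochrome P450 genes fell in 12 of 14 tested, which left out Cyp1a1 as too low, among them Cyp4a12a and Cyp4a12b (above). The 1 that rose was Cyp1b1 (175 and 213 to 1334 and 1103 normalized counts, 2.65 ± 0.16, FDR 0.000101), a number that was 2 without DMSO replicate 2. Phase II conjugation and glutathione genes fell in 19 of 25 (median -2.28). The sulfotransferase gene Sult1d1 went from 2936 and 2494 to 1.98 and 1.97, a ratio of 1374 (95% counting interval 380.3 to 11340), the glucuronosyltransferase gene Ugt2b5 from 236 and 242 to 0 and 0, at least 40.3-fold lower, and the glutathione transferase gene Gsta1 from 112 and 124 to 0 and 3.95, a ratio of 59.7 (95% counting interval 16.5 to 493) and a fitted log2 fold change of -9.87 without TGF-β+2APB replicate 2. These genes belong to families with near-identical members, among which reads could be divided. The 4 that rose, Srxn1 (3548 and 3349 to 6479.9 and 6459.6, 0.91 ± 0.11), Gclm (0.57 ± 0.079), Txnrd1 (0.56 ± 0.073) and Hmox1 (0.48 ± 0.12), are antioxidant genes, the last 3 set apart. Epithelial transporters fell in 16 of 19 (median -2.62): the bile acid carrier Slc10a2 from 242 and 238 to 0 and 5.92, a ratio of 80.8 (95% counting interval 27.7 to 392) and a fitted log2 fold change of -10.89 without TGF-β+2APB replicate 2, and the water channel Aqp1 from 511 and 463 to 15.8 and 11.8 (-5.12 ± 0.42, FDR 0.000305). The 2 that rose were the folate carrier Slc46a1 (1026 and 919 to 4932 and 4646, 2.30 ± 0.13) and the efflux pump Abcg2 (1228 and 1266 to 1837 and 1606, 0.46 ± 0.093, set apart). Calls of higher members came to 1 without either DMSO library or TGF-β+2APB replicate 1, and the FDR of Abcg2 was 0.0573 to 0.0783 without DMSO replicate 1, DMSO replicate 2 or TGF-β+2APB replicate 1.

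Genes of lipid oxidation and synthesis were mostly lower. Fatty acid oxidation and ketogenesis genes fell in 19 of 25 (median -1.10). Cpt1a, the carnitine palmitoyltransferase that admits fatty acids to the mitochondrion, fell from 25601 and 24439 normalized counts in DMSO to 3245 and 4222 in TGF-β+2APB (-2.74 ± 0.20, FDR 0.000207). The ketone body enzyme Bdh1 went from 5167 and 4999.8 to 202 and 343 (-4.22 ± 0.34). Pdk4, a brake on pyruvate oxidation, rose from 311 and 238 to 713 and 732 (1.40 ± 0.15), as did Acox2 (0.58 ± 0.12, set apart), and the number higher was 1 without either DMSO library or TGF-β+2APB replicate 1. Cholesterol synthesis genes fell in 17 of 25 by smaller amounts (median -0.56), 9 of the called set apart. Acat2 went from 2319 and 2080.5 to 867 and 933 (-1.29 ± 0.11). Lss went from 3190 and 2731 to 1219.6 and 1282 (-1.24 ± 0.11). Hsd17b7 was the 1 that rose (617 and 597 to 1524 and 1565, 1.35 ± 0.08). The number lower was 9 without DMSO replicate 1 and the number higher 2 without either library of TGF-β alone. Fatty acid and triglyceride synthesis genes fell in 11 of 21, with Dgat2 (9012 and 8152 to 1152 and 1549, -2.67 ± 0.19) and the factor Srebf1 (28464 and 27280 to 6716 and 7162, -2.01 ± 0.10, FDR 7.09e-05) lowest. Fasn was set apart (47848 and 45895 against 34364 and 37461, -0.38 ± 0.11; FDR 0.0904 to 0.172 without single libraries of either group). The lipid droplet gene Plin2 rose from 17013 and 16049 to 51709 and 50070 (1.62 ± 0.09) and Fads1 by 0.38 ± 0.10 (set apart), a number of 2 that was 1 without any single library of the 4 compared.

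Glycolysis and hypoxia-response genes fell in 16 of 26 and rose in 6 (median -0.57). The aldolase gene Aldoc fell from 1541 and 1318 normalized counts in DMSO to 37.6 and 162 in TGF-β+2APB (-3.84 ± 0.66). Egln3, a HIF prolyl hydroxylase, went from 2146 and 2101 to 218 and 349 (-2.90 ± 0.25). Among those that rose, Hk2, hexokinase 2, went from 1739.5 and 1857 to 11150 and 11122 (2.63 ± 0.087, FDR 2.5e-05). The glycolysis regulator Pfkfb4 went from 246 and 205 to 2995 and 2356 (3.57 ± 0.17). The glucose carrier Slc2a1 went from 2789 and 2676 to 3954 and 4074 (0.55 ± 0.11), was set apart, and had an FDR of 0.0621 without DMSO replicate 2. Respiratory chain genes stayed near DMSO, with 18 of 28 not called, 8 lower and 2 higher (median -0.15). Of the called genes 9 were set apart, all 8 lower ones among them. Ndufa1 was set apart (1959.6 and 1999.9 against 1311 and 1559, -0.46 ± 0.11; FDR 0.08 to 0.0984 without DMSO replicate 1, DMSO replicate 2 or TGF-β+2APB replicate 1), and Cycs, cytochrome c, rose from 6349 and 6198 to 10628 and 10354 (0.74 ± 0.077), beside Uqcrc1 (0.48 ± 0.11, set apart). The number lower was 1 without DMSO replicate 1, 2 without TGF-β+2APB replicate 1, 3 without TGF-β+2APB replicate 2, 4 without DMSO replicate 2 and 15 without either library of TGF-β alone, and the number higher 1 without any single library of the 4 compared and 4 without either library of TGF-β alone.

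Cell cycle genes differed between the mitosis and DNA replication lists. Mitosis genes were lower in all 28 members tested (median -1.34), and without any single library of the 4 compared 21 to 25 of them were still called lower. The cyclin gene Ccnb1 fell from 2386 and 2903 normalized counts in DMSO to 996 and 884 in TGF-β+2APB (-1.49 ± 0.13, FDR 0.000338). Ccnb2 went from 1867 and 1929.7 to 384 and 371 (-2.33 ± 0.13). The anaphase activator Cdc20 went from 1781 and 1614 to 384 and 381 (-2.15 ± 0.10). DNA replication genes rose in 16 of 32 and fell in 3 (median 0.35). Of those not set apart 9 rose and 1 fell, against 24 lower in the mitosis list. The helicase genes Mcm2 (6276 and 6326 to 10841 and 11295, 0.81 ± 0.10) and Mcm6 (10101 and 10822 to 23241 and 20647, 1.07 ± 0.11) and the G1/S cyclin Ccne1 (476 and 618 to 1249 and 1363, 1.26 ± 0.15) rose, while Tk1 (1983 and 2119.7 to 1180 and 1273, -0.74 ± 0.14), Prim1 (-0.47 ± 0.08) and Gins2 (-0.40 ± 0.13) fell, the last 2 set apart. The number higher was 10 without DMSO replicate 1, and the number lower 1 without DMSO replicate 2 and 5 without either library of TGF-β alone. Among CDK inhibitors, D cyclins and p53 targets 12 of 22 fell and 6 rose. Gadd45a rose from 1973 and 1855 to 20343 and 16613 (3.27 ± 0.13). Ccnd1, cyclin D1, went from 11917 and 13099 to 65195 and 62747 (2.35 ± 0.084, FDR 2.75e-05). The inhibitor genes Cdkn1c (163 and 184 to 21.8 and 31.6, -2.70 ± 0.56) and Sesn2 of the stress response (981 and 940.0 to 335 and 416, -1.35 ± 0.15) fell. Cdkn1a, the gene of p21, was set apart (2758 and 2456 against 1388 and 1736, -0.74 ± 0.15), with an FDR of 0.0612 without DMSO replicate 1 and 0.0504 without TGF-β+2APB replicate 1.

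Ribosome biogenesis genes rose in 25 of 30 and none fell (median 0.86), and 18 of the 25 were not set apart. The nucleolar genes Nop56 (7119 and 7584 to 18782 and 18558 normalized counts, 1.34 ± 0.07, FDR 7.09e-05) and Rrs1 (1539 and 1568 to 3651 and 3713, 1.24 ± 0.084) rose most. Fbl, fibrillarin, was set apart (8815 and 8759.9 against 11374 and 12651, 0.45 ± 0.11), with an FDR of 0.0907 to 0.0957 without DMSO replicate 1, DMSO replicate 2 or TGF-β+2APB replicate 2. The 5 members not called, Dkc1 (0.83 ± 0.44), Ncl (0.57 ± 0.20), Nop58 (0.53 ± 0.37), Noc3l (0.43 ± 0.15) and Npm1 (0.31 ± 0.17), had positive values too.

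**Figure D4:**
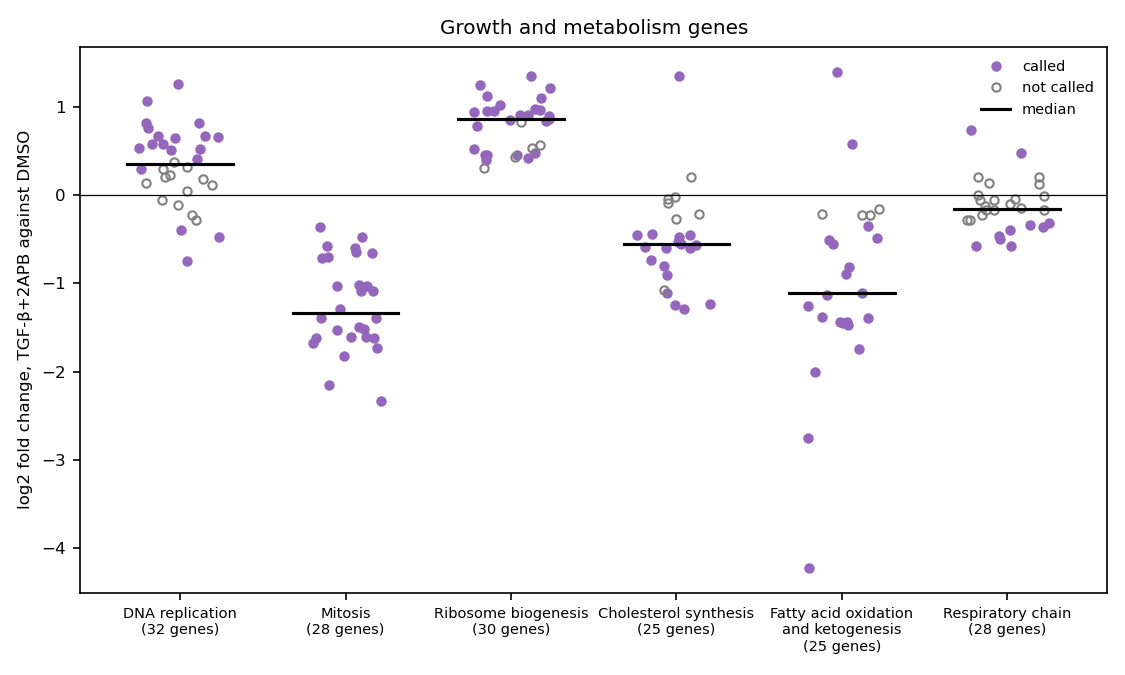
Log2 fold change of TGF-β+2APB against DMSO for the members of 6 growth and metabolism lists (1 point a gene; filled, called; open, not called; bars, medians). All 28 mitosis genes lie below 0 and all 30 ribosome biogenesis genes above it, while most respiratory chain genes are open points near 0.

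Stress lists moved less evenly. ATF4 targets and tRNA synthetases rose in 14 of 27 and fell in 5, 9 of the called set apart. Ddit4 rose from 4391 and 4363 normalized counts in DMSO to 15557 and 14290 in TGF-β+2APB (1.77 ± 0.078, FDR 4.8e-05). Chac1 went from 155 and 207 to 521 and 377 (1.31 ± 0.23). The serine synthesis gene Psat1 fell from 19230 and 18755 to 2037 and 2289 (-3.13 ± 0.12, FDR 3.8e-05). Ddit3, the gene of CHOP, went from 1647 and 1618 to 546 and 681 (-1.41 ± 0.17), with Sesn2, Wars (-1.26 ± 0.14) and Slc3a2 (-0.34 ± 0.11, set apart). Atf4 itself was at 8102 and 8210.4 against 9778 and 9309 (0.23 ± 0.072, FDR 0.0411), set apart and lost without any single library of either group (FDR 0.126 to 0.296). Members called higher numbered 8 without DMSO replicate 2. Endoplasmic reticulum chaperones were not called in 13 of 26, Hspa5 (BiP) among them (36319 and 35664 against 40612 and 39823, 0.16 ± 0.064), while 8 fell and 5 rose. Over all genes tested the shares were 27.2% lower and 25.6% higher. Herpud1 fell from 10857 and 10276 to 1392 and 1649 (-2.80 ± 0.18, FDR 0.000148). Sdf2l1 went from 1331 and 1328 to 513 and 639 (-1.21 ± 0.14). Hyou1 rose from 8815 and 9221 to 16373 and 16983 (0.89 ± 0.089), and Manf (0.44 ± 0.086), Ern1 (0.37 ± 0.078), Pdia4 (0.37 ± 0.089) and Selk (0.26 ± 0.074) rose and were set apart. The number higher was 1 without either DMSO library or TGF-β+2APB replicate 2, 2 without TGF-β+2APB replicate 1 and 10 without either library of TGF-β alone, and the number lower 4 without any single library of the 4 compared.

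Cytosolic heat-shock genes rose in 10 of 17, 5 of the called set apart, and the number higher was 5 without either DMSO library and 6 without either TGF-β+2APB library. Cryab, αB-crystallin, rose from 509 and 489.6 normalized counts in DMSO to 5017 and 4769 in TGF-β+2APB (3.29 ± 0.10, FDR 1.81e-05). Hspa1b went from 181 and 184 to 337 and 347 (0.91 ± 0.18), a call lost without DMSO replicate 1 (FDR 0.0652) or 2 (FDR 0.0615). Hspb1 was the 1 that fell (1274 and 1262 to 685 and 775, -0.80 ± 0.12). Hsf1, the factor that drives this response, was set apart (3115 and 3322 against 4162 and 4249.8, 0.39 ± 0.093; FDR 0.0704 to 0.124 without single libraries of either group). Lysosomal genes fell in 10 of 29 and rose in 3: the protease Ctsl (40505 and 38455 to 164290 and 147380, 1.98 ± 0.081), the cholesterol exporter Npc1 (4163 and 4122 to 8349 and 8557, 1.03 ± 0.085) and Cd63 (0.62 ± 0.10). Ctsh (3504 and 3279 to 1107 and 1756, -1.24 ± 0.23) and the proton pump subunit Atp6v0a1 (24085 and 23038 to 9121 and 11280, -1.21 ± 0.13) fell most, and Lamp1 was set apart (60512 and 57173 against 43720 and 47500, -0.37 ± 0.11; FDR 0.108 to 0.198 without single libraries of either group). The number lower was 5 without any single library of the 4 compared and 16 without replicate 2 of TGF-β alone, and the number higher 6 without either library of TGF-β alone.

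Members of the BCL2 family, which set the threshold for apoptosis, rose in 5 of 14 and fell in 4, with 4 of the called set apart. Over all genes tested 25.6% rose and 27.2% fell, so the list lay not far from the background. Bcl2 was not called (2934 and 3027 against 3352 and 3389.6 normalized counts, 0.18 ± 0.11). The pro-apoptotic genes Bik (7.86 and 4.13 to 109 and 96.7, 4.07 ± 0.42) and Bok (743 and 826 to 3366 and 2975, 2.01 ± 0.11, FDR 8.42e-05) rose, with Bcl2l11 (0.68 ± 0.089), Bak1 (0.45 ± 0.11) and Bax (0.33 ± 0.10), the last 2 set apart. The pro-apoptotic Bbc3 (1077 and 1101 to 429.6 and 442, -1.32 ± 0.10) and the anti-apoptotic Bcl2l1 (15641 and 15741 to 6070.1 and 7529, -1.21 ± 0.15) fell, with Pmaip1 (-0.59 ± 0.16) and Bid (-0.44 ± 0.10), both set apart. For the list, higher calls numbered 3 without any single library of the 4 compared, and the number lower 2 without DMSO replicate 1 or TGF-β+2APB replicate 2.

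Genes of the cornified envelope, the cross-linked shell of squamous cells, rose in 10 of 13 (median 2.38). Lce1g went from 3.93 and 4.13 normalized counts in DMSO to 8685 and 7132 in TGF-β+2APB (10.89 ± 0.20, FDR 1.03e-05). Lce1f went from 0 and 0 to 871 and 738, at least 133-fold higher, and involucrin, Ivl, from 1624 and 1777 to 6171 and 6548 (1.90 ± 0.11). The precursor gene Sprr1a fell from 42162 and 38535 to 2429 and 4037 (-3.64 ± 0.28), as did Sbsn (-0.56 ± 0.14, set apart). The number higher was 6 without DMSO replicate 2, and the number lower 1 without either DMSO library or TGF-β+2APB replicate 1. Among genes that the study's text names for these data, Msi1, an RNA-binding protein of progenitor cells, went from 3.93 and 2.07 to 79.2 and 67.1, a ratio of 24.2 (95% counting interval 8.28 to 117). Reln, the secreted protein reelin, went from 5.90 and 6.20 to 65.3 and 101 (3.75 ± 0.41, FDR 0.000859).

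Salivary and lacrimal secretory genes had counts in both treated libraries, while 8 of the 10 in the table had none in DMSO. Of the 7 that were tested, all but Amy1 had at most a single doubled read in DMSO, so they passed the count minimum through the libraries where they are high, and their calls are no support for these values. Bpifa2, a salivary secretory protein, had 1.97 and 0 normalized counts in DMSO and 3184 and 5374 in TGF-β+2APB, Amy1, salivary amylase, 29.5 and 53.7 against 750.4 and 1168, and Smr3a and Spt1 were given above. The sum over the list was 31.4 and 53.7 in DMSO and 6876 and 10820 in TGF-β+2APB. Among the libraries of TGF-β alone it was 5.84 in replicate 1 and 2812 in replicate 2. The treated libraries therefore lay above DMSO in both replicates, and the same genes were uneven within the TGF-β group. The source of these counts was not tested. The other marker lists were small or mixed. Luminal markers, the most abundant list, summed to 566200 and 531500 in DMSO and 1382000 and 1314000 in TGF-β+2APB, with Krt8, Krt18 and Krt7 higher and Cdh1, Krt19 and Epcam lower. The endothelial sum went from 35.4 and 18.6 to 273 and 432, with Vwf the 1 member tested (higher). The adipocyte sum was 159 and 169 against 9.90 and 96.7, with Cidec the 1 member tested (lower) and Fabp4 at 3.96 and 88.8 in TGF-β+2APB. Basal and myoepithelial markers summed to 26550 and 27030 in DMSO and 13280 and 14350 in TGF-β+2APB, a difference that lay in Mylk (14458 and 14768 to 1022 and 1657). Their members Itga6 (12060 and 12247 against 12105 and 12560, not called), Acta2 (higher, above) and Krt17 (0 and 0 against 51.5 and 39.5, not tested) did not share its direction. Milk protein genes reached at most 7.92.

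**Figure D5:**
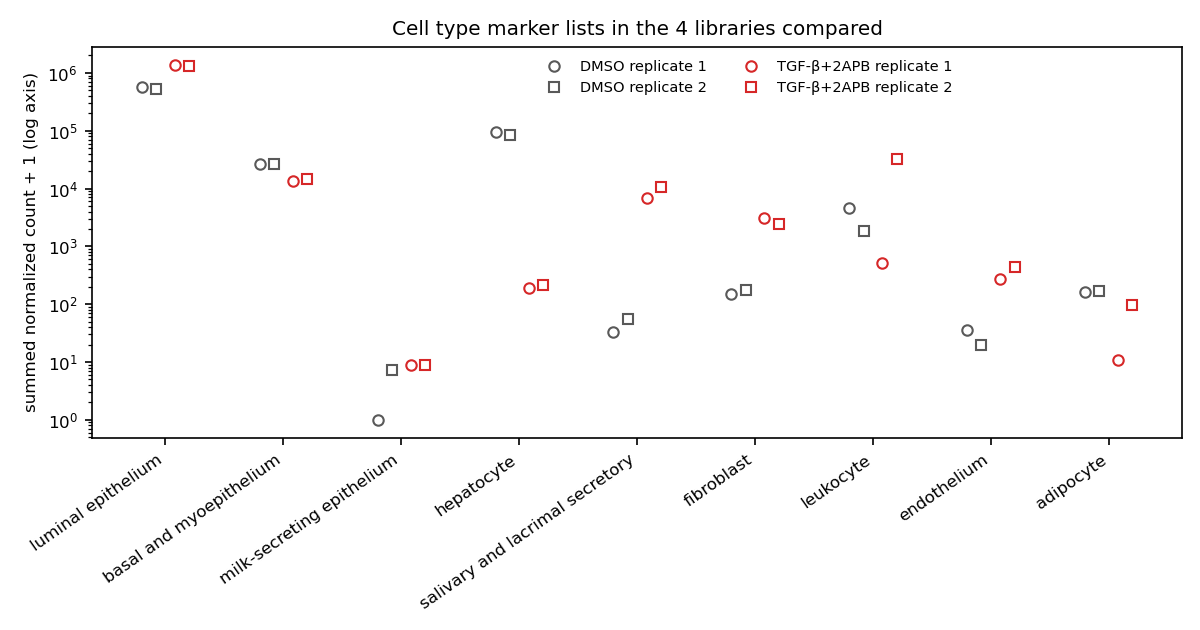
Summed normalized count plus 1 (log axis) of 9 cell type marker lists in the DMSO (grey) and TGF-β+2APB (red) libraries, circles for replicate 1 and squares for replicate 2. The leukocyte sum reaches 32780 in TGF-β+2APB replicate 2 alone, while the hepatocyte and salivary sums separate the groups in both replicates.

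The 243 genes whose TGF-β+2APB replicates differed 4-fold or more were led by genes of macrophages and other myeloid cells, and 228 of them were not called. Lyz2, the lysozyme of macrophages, had 3591 and 1116 normalized counts in DMSO and 156 and 28668 in TGF-β+2APB, a log2 fold change of 2.61 ± 1.90 (FDR 0.296). Replicate 1 lay below both DMSO libraries and replicate 2 above them. The chemokine Ccl6 (1081 and 207 against 61.4 and 8691) and the macrophage elastase Mmp12 (643 and 165 against 25.7 and 5419.8) showed the same order. So did Clec4n (a C-type lectin), Ccr1 (a chemokine receptor), Ctss (cathepsin S), Lyz1, Lpl (lipoprotein lipase), Gpnmb and Csf2rb, a receptor chain for GM-CSF. In all 10 of these genes, those with the largest differences between the replicates, DMSO replicate 1 was above DMSO replicate 2. That held for 220 of the 243 (90.5%), against 56.6% of all genes tested. Of the leukocyte markers, 7 of 9 were among the 243, and the lymphocyte gene Cd3e (0 and 1.97 in TGF-β+2APB) was not tested.

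For 2 of these genes the fitted values with a single treated library show the order, which follows from the way the 243 were chosen and is a description with no test. Lyz2 was at 3.60 without replicate 1 and -3.89 without replicate 2, and Ccl6 at 3.75 and -3.36.

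The 15 genes of this kind that were called moved the same way in both replicates but by very different amounts, and 14 of them fell. The complement gene C3 went from 182670 and 186130 normalized counts in DMSO to 152 and 917 (-8.43 ± 0.99, FDR 0.00109). The neutrophil chemokine Cxcl5 went from 23513 and 21718 to 162 and 870.1 (-5.45 ± 0.77). The NADPH oxidase gene Cybb went from 12803 and 12245 to 89.1 and 1936 (-3.63 ± 1.18). The cholesterol exporter Abca1 (1773 and 1882 to 29.7 and 166), the plasma protein genes Apoc2 (14836 and 12543 to 17.8 and 114) and Hp (2156 and 1967 to 17.8 and 286) and the glucuronosyltransferase gene Ugt2b34 (38779 and 37868 to 145 and 651) had the same form. Dio3, Dio3os, Gbp4, Gbp6, Lcp1, Rnase4 and St8sia4 were the other falls, and Spint1, a protease inhibitor of epithelia, was the 1 rise (3.93 and 8.26 to 13.9 and 136, 3.60 ± 1.15, FDR 0.0423). These 15 were named after their values were seen.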

How the data were processed

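Poly-A RNA of NMuMG cells was sequenced as 50 bp single-end reads, in 2 libraries each of DMSO, TGF-β and TGF-β+2APB. The values used are whole-number counts per gene that the authors deposited. Per the submitters' processing notes, reads were checked with FastQC 0.11.2, aligned with TopHat2 2.0.13 and compared with DESeq2 1.6.1. Those notes name the mouse build mm10, whereas the methods name hg19, and the strand setting and the handling of reads that match several places are not given in the sources used here. All deposited counts were even, and 25 of 18512 entries had names turned into dates, which were kept under those names. Groups came from the sample labels.

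Here, edgeR 4.0.16 (R 4.3.3) fitted its quasi-likelihood model to all 6 libraries with TMM scaling, and genes that averaged 20 or more normalized counts were tested for TGF-β+2APB against DMSO with Benjamini-Hochberg adjustment. The totals were 71840570 to 79473182 counts per library. Since every count was even, the counting precision may rest on the halved values, which were used for floors and intervals. The main fit took the counts as deposited. The spread between replicates (common coefficient of variation 17.4%) set the tests. Replicate numbers did not pair the libraries (correlation of replicate differences -0.49 between DMSO and TGF-β+2APB). Scripts were tested on simulated data.

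The genes and lists were chosen with earlier results of these data known. For each list the first member and up to 2 rises and 2 falls not set apart are named, together with the 10 largest rises and falls that averaged 200 or more normalized counts in the higher group, the 10 largest replicate differences, counts of 5 or fewer in full, and genes of the study's text. Other names complete a count, define a cell type or were chosen after their values were seen. Lists were described by counts and medians, with no test of the list. Alternatives were DESeq2 1.42.0, other scalings, filters and thresholds, halved counts, the 4 libraries alone, a replicate block and leaving out each library. A few genes are not reported here by name, though they stay in the fits and in the counts of their lists.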

Additional observations from a re-analysis of the deposited data

Results flagged for a closer look

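The libraries of TGF-β alone entered no comparison here, and marker lists in them lay above both DMSO libraries. Salivary and lacrimal secretory markers summed to 2812 normalized counts in TGF-β replicate 2, against at most 53.7 in DMSO and 5.84 in TGF-β replicate 1. Fibroblast markers summed to 2343 and 2355 in TGF-β replicates 1 and 2, against at most 176 in DMSO. Milk protein genes, counting Csn3 and Glycam1, summed to 33.1 and 54.0, against at most 6.20. The differences were not tested, and their causes were not tested.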

How the results depend on the processing

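The 7044 calls fell to 3029 (1282 higher, 1747 lower) with a further minimum of 1 for the size of the log2 fold change, and the 2670 called genes set apart fell to 15 with the difference between replicates as the only rule, both by construction. With each of the 6 libraries left out in turn, the calls ranged from 4355 to 9006, the higher ones from 2067 to 4480 and the lower ones from 2288 to 4547. The low ends came without DMSO replicate 1 and the high ends without a library of TGF-β alone, and the cause was not tested. No call of any alternative run had the opposite sign to the main call of the same gene, and the 7647 calls of DESeq2 with its prior held 7008 of the 7044. The fit with a replicate block called 6358 genes, 6334 of them among the 7044, but the labels do not say that equal replicate numbers belong together. A crossed replicate block, added after seeing the data, called 7232. The fit on halved counts called 6786 genes, 6723 of them among the 7044.

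Without TGF-β+2APB replicate 2 the 10 genes with the largest replicate differences reversed, which their choice by that difference favours. Over the leave-outs of single libraries their log2 fold change ranged from -5.17 to 4.59 for Clec4n, -3.89 to 3.69 for Lyz2, -3.94 to 4.04 for Mmp12, -4.87 to 6.91 for Ccr1, -4.01 to 3.48 for Ctss, -3.36 to 4.40 for Ccl6, -3.75 to 3.92 for Lyz1, -3.59 to 3.68 for Lpl, -4.99 to 3.41 for Gpnmb and -3.83 to 3.95 for Csf2rb. Neither Akt1 (-0.038 to 0.044, and -0.061 with library size scaling) nor Orai1 (-0.18 to 0.015) was called, so their changes of sign lay within the error. At 2 libraries a group, differences of about 1.5-fold in size were often lost when a library was left out, and depth limited the genes near 0, for which bounds and intervals are given. These results rest on a single line and on replicates that the study's methods call biological, without saying whether they were separate cultures.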
